A study of Homo sapiens with 16 samples.

Results

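The imprinted growth genes are 10 genes chosen by name, with no threshold on their values: H19, IGF2 and CDKN1C of chromosome 11, DLK1 and MEG3 of chromosome 14, GRB10, PEG10 and MEST of chromosome 7, NNAT of chromosome 20 and PEG3 of chromosome 19. They are 10 of the 57736 genes in the count table, and all 10 were among the 24249 genes that passed the filter on low counts. RNA was sequenced from H9, an established human embryonic stem cell line, at 4 stages of differentiation towards cortical neurons by inhibition of BMP and TGF-β signalling: days 0 (D0), 12 (D12), 30 (D30) and 70 (D70). At each stage 2 libraries came from cultures kept in 40 µM Thiamet-G (TMG), which inhibits O-GlcNAcase, the enzyme that removes the sugar O-GlcNAc from proteins, and 2 from cultures given its solvent DMSO, 16 libraries in all. D0 cells were undifferentiated, and the TMG arm of D0 had also received the inhibitor. Every library is from the same line, so the groups hold a single genetic background.

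An imprinted gene is transcribed mainly from the copy inherited from the mother or mainly from the copy inherited from the father, a state set by DNA methylation at control regions shared by neighbouring genes. Many genes of this kind act on growth of the fetus and placenta. IGF2, a paternally expressed growth factor, and H19, a maternally expressed long noncoding RNA, share enhancers and a control region, and DLK1 and MEG3 form a similar pair. Counts per gene do not separate the parental copies, so the values below are summed over both.

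On GRCh37, H19 (ENSG00000130600) lies at chr11:2016396-2025782 and IGF2 (ENSG00000167244) at chr11:2150342-2179621, both on the minus strand and 124559 bp apart. CDKN1C (ENSG00000129757) lies on the same chromosome at chr11:2904443-2907005, also on the minus strand. DLK1 (ENSG00000185559, chr14:101192042-101204561) and MEG3 (ENSG00000214548, chr14:101245747-101327368) are both on the plus strand and 41185 bp apart. GRB10 (ENSG00000106070, chr7:50657760-50861159, minus strand) overlaps none of the annotated genes looked up here. MEST (ENSG00000106484, chr7:130126012-130146306) and PEG10 (ENSG00000242265, chr7:94285637-94299007) are on the plus strand of chromosome 7, each with an antisense gene over its 5′ end, MESTIT1, which had 1 count in all 16 libraries, and SGCE. NNAT (ENSG00000053438, chr20:36149608-36152092, plus strand) lies inside BLCAP on the opposite strand, and PEG3 (ENSG00000198300, chr19:57321445-57352096, minus strand) shares its 5′ end with ZIM2. Whether strand was used in counting is not given in the sources used here, so reads of a gene and its antisense partner cannot be told apart.

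H19, IGF2 (miR-483), MEST and MEG3 host microRNAs, and those of H19 and MEST are shown because the results below turn on these hosts, H19 for its rise on D70 and MEST for its calls at all later stages. The mature sequences are from RefSeq (GRCh38.p14), 5′ to 3′, with the seed (bases 2 to 8) in capitals; miR-675 lies within H19 on the minus strand, with its 5p arm at chr11:1996800-1996822 and its 3p arm at chr11:1996768-1996787, and miR-335 within MEST on the plus strand, at chr7:130496126-130496148 and chr7:130496162-130496183.
hsa-miR-675-5p: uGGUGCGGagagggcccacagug
hsa-miR-675-3p: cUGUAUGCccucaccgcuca
hsa-miR-335-5p: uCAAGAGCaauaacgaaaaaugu
hsa-miR-335-3p: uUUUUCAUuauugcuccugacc
The 4 arms have 4 different seeds. The separate entry for the hairpin of miR-335 held 0 counts in all 16 libraries, so nothing below measures a mature microRNA.

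The promoter windows of H19 and MEG3 are shown because of these noncoding RNAs H19 rose on D70 and MEG3 was scarce at every stage. Each window is 300 bases around a start site, mostly before it, in RefSeq (GRCh38.p14), printed 5′ to 3′ along the gene with each CG in capitals; that of H19 is chr11:2001217-2001516 on the minus strand and that of MEG3 is chr14:100825858-100826157 on the plus strand, the first of 3 overlapping entries for MEG3.
H19 promoter: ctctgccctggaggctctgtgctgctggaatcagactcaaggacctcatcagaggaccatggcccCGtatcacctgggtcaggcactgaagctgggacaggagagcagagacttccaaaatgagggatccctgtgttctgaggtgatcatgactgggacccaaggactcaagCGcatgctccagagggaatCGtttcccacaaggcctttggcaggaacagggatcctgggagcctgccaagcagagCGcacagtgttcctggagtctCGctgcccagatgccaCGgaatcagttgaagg
MEG3 promoter: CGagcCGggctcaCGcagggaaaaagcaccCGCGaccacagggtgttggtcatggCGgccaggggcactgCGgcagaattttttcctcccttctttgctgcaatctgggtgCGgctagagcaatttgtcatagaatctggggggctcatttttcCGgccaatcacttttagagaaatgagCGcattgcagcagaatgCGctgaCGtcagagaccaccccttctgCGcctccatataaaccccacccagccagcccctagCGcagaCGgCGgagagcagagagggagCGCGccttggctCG
The H19 window held 6 CG pairs and the MEG3 window 19, beside a median of 14 over 35116 windows of the same length. It was the only entry for H19, and other start sites of that gene were not examined. Both strands were searched for the letters TATAAA, which were in the MEG3 window and in 11.5% of all windows. The letters CCAAT, in 34.6% of all windows, and TGACGTCA, in 1.85%, were in the MEG3 window too. That H19 window held none of them. The last of these motifs contains a CG that is counted above. The table used here also holds windows of GRB10 and MEST.

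The libraries held between 10334908 and 19836878 counts, with a median of 15254160. Levels are CPM, each count as a share of its library's total scaled by the TMM method, and with 2 cultures per group every SD rests on 2 values. The D0 libraries held the 8 stem cell markers at a summed 3913 to 4655 CPM, against 2.29 to 3.86 CPM on D70. Both D70 libraries numbered replicate 2 stood apart from replicate 1 of their arm. Their 10 mesenchyme and stroma markers summed to 46741 CPM with DMSO and 62134 CPM with TMG, beside 7614 and 3866 CPM in replicate 1, and none of the 10 was at 0 in any D70 library. Their 10 roof plate and choroid plexus markers summed to 514 and 66.7 CPM, beside 10721 and 3540.4 CPM. Replicate 2 of TMG on D30 also held more of the mesenchyme markers, 31111 CPM, than the 3 other libraries of D30, at 4525 to 5965 CPM. In such bulk cultures, more cells of a type and more RNA per cell cannot be told apart, and several D70 results are also given without replicate 2 of both arms.

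H19 was scarce in stem cells and abundant in part of the D70 cultures. H19 stood at 5.31 and 3.78 CPM in DMSO replicates 1 and 2 of D0 and at 4.12 and 5.0 CPM in the TMG replicates. On D12 it was at 103 and 95.5 CPM with DMSO and at 745 and 227 CPM with TMG. On D30 it was lower, at 23.0 and 21.5 CPM with DMSO and 62.2 and 32.4 CPM with TMG. The D12 and D30 libraries of both arms therefore did not overlap with those of D0 or with each other. On D70, H19 was at 32.5 and 2862 CPM with DMSO and at 107 and 8445 CPM with TMG, so that replicate 2 was 88.0 times replicate 1 in DMSO and 78.9 times in TMG. In those replicate 2 libraries H19 ranked 16th and 13th of all genes by counts, while in replicate 1 it ranked 6843rd and 1904th.

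IGF2, the growth factor that signals through the IGF1 receptor, took a similar course with a different D30. IGF2 was at 2.35 and 5.53 CPM in DMSO and 4.8 and 4.48 CPM in TMG on D0, and at 88.7 and 55.3 CPM in DMSO and 407 and 156 CPM in TMG on D12. On D30 the DMSO cultures held 123 and 178 CPM and the TMG cultures 105 and 503 CPM. These D30 levels were above D12 in DMSO, where H19 was below D12. On D70, IGF2 was at 188 and 4258 CPM with DMSO and at 177 and 9312 CPM with TMG, again with the high value in replicate 2 of each arm. H19 and IGF2 together took 0.724% and 1.55% of all counts of the replicate 2 libraries of D70 and 0.0193% and 0.0254% of those of replicate 1.

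The ratio of IGF2 to H19 within a library separated D12 from D30. IGF2 over H19 was 0.546 to 0.863 in the 4 libraries of D12 and 1.69 to 15.6 in the 4 of D30. In the D70 libraries it was 5.78 and 1.49 with DMSO and 1.65 and 1.1 with TMG. As TMM CPM are not divided by gene length, these ratios compare libraries and not the molar amounts of both RNAs. Over the 16 libraries, which share stages and cell makeup, log2 CPM of H19 and IGF2 had a Pearson correlation of 0.897.

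**Figure D1:**
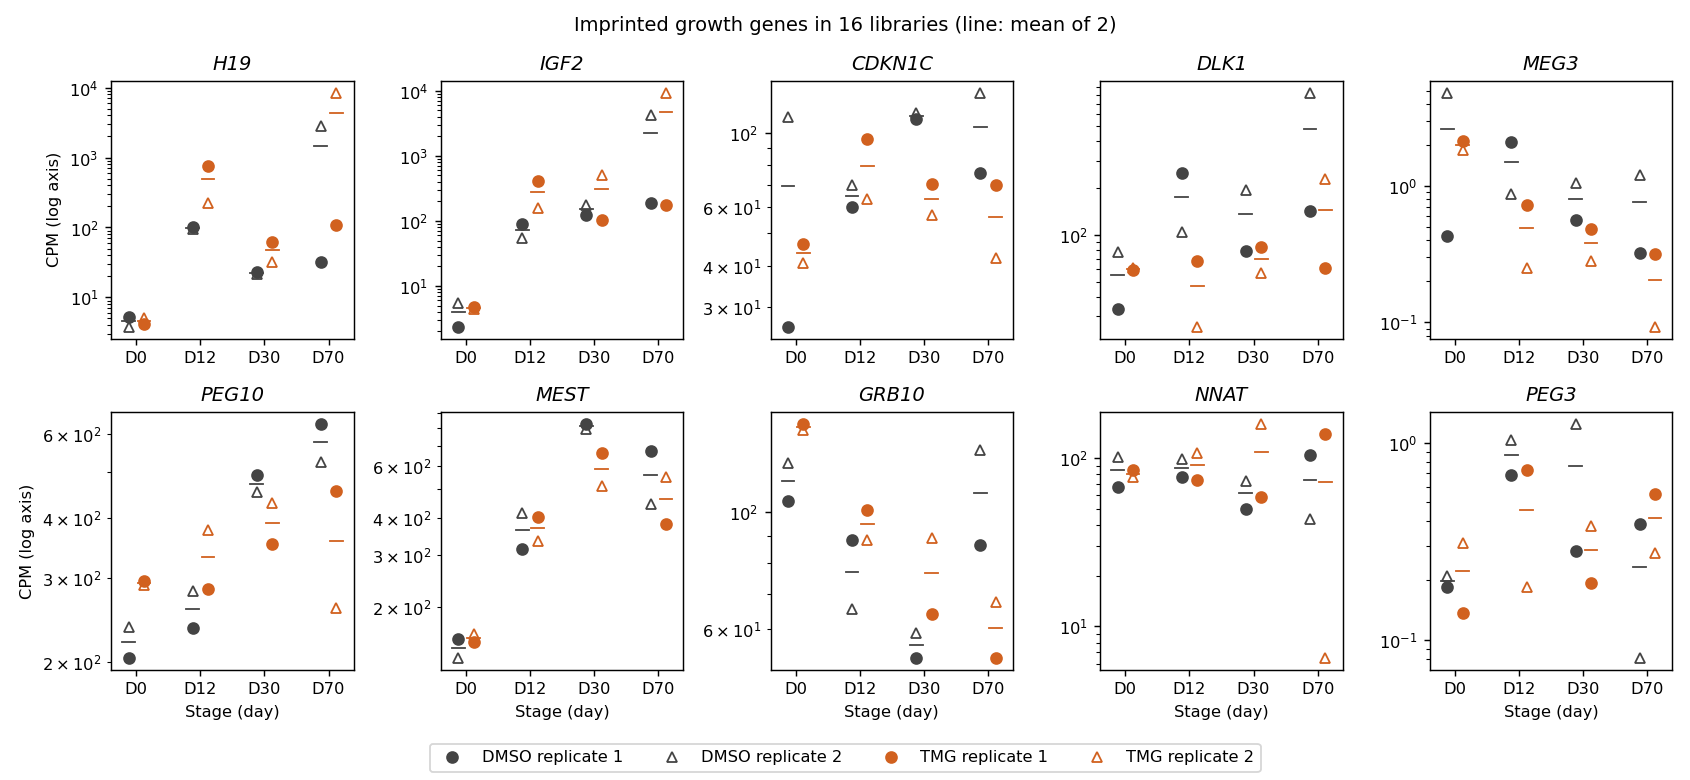
Level of each of the 10 genes (CPM, log axis) against stage in 16 libraries. Grey is DMSO and orange TMG, filled circles are replicate 1, open triangles replicate 2, and short lines the mean of 2 libraries; H19 and IGF2 reach 8445 and 9312 CPM in TMG replicate 2 of D70, while MEG3 and PEG3 stay below 5 CPM in every library.

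Mesenchymal markers were high in the libraries with most H19 and IGF2, but the order was not the same throughout. COL1A1, a subunit of type I collagen, was at 20367 and 27654 CPM in the replicate 2 libraries of D70, beside 2403 and 1876 CPM in replicate 1. LUM and DCN, proteoglycans of connective tissue, were at 409 to 598 CPM in replicate 2 and at 1.86 to 50.9 CPM in replicate 1. Of the 10 mesenchyme markers, 9 were higher and 1 lower in replicate 2 of D70 in each arm. The summed trophoblast markers of D70 were also higher in replicate 2, 3.53 times replicate 1 in DMSO and 5.64 times in TMG. Of these 7 markers, 5 were higher and 2 lower in DMSO, and 6 higher and 1 lower in TMG. TMG replicate 2 of D30 had mesenchyme markers at 31111 CPM and IGF2 at 503 CPM, the highest IGF2 of that stage, but H19 at 32.4 CPM, below TMG replicate 1. On D12, TMG replicate 1 had the most H19 with mesenchyme markers at 1238 CPM, within the 1143 to 1938 CPM of that stage. Its 7 trophoblast markers summed to 215 CPM, beside 129 CPM in TMG replicate 2 and 41.6 and 55.9 CPM in the DMSO libraries of D12, with KRT7, a keratin of simple epithelia, at 84.7 CPM beside 38.6 CPM and 5.31 and 14.8 CPM. The part of these cell types in the levels of H19 and IGF2 was not tested.

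**Figure D2:**
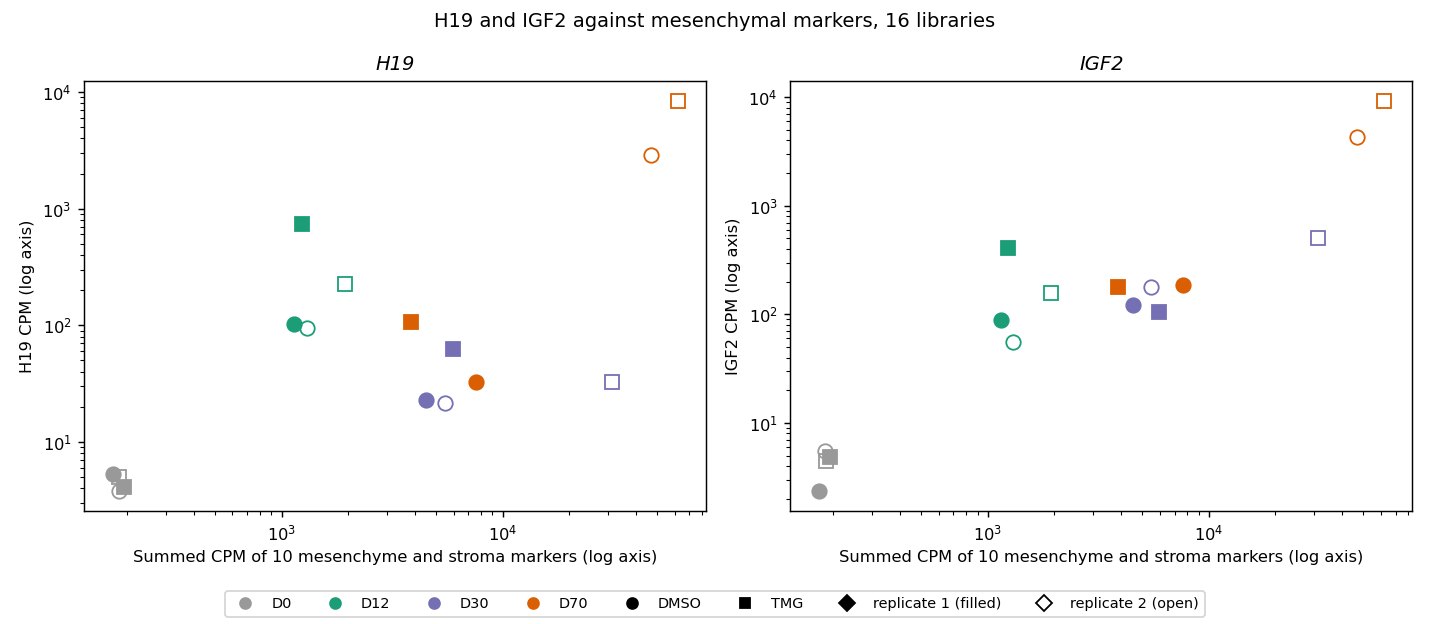
H19 and IGF2 (CPM, log axis) against the summed CPM of 10 mesenchyme and stroma markers (log axis) in 16 libraries, with stage by colour, arm by shape and replicate by fill. Both replicate 2 libraries of D70 lie at the upper right of both panels, the D12 libraries have more H19 than every D30 library with fewer of the markers, and TMG replicate 2 of D30 has 31111 CPM of markers with 32.4 CPM of H19.

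CDKN1C, an inhibitor of cyclin-dependent kinases that restrains growth and is maternally expressed, varied over a smaller range. It was at 26.2 and 112 CPM in the DMSO replicates of D0 and at 46.6 and 40.8 CPM in TMG. On D12 it was at 59.9 and 69.7 CPM with DMSO and at 96.2 and 63.5 CPM with TMG. The DMSO cultures of D0 thus spanned nearly the range of the whole series, 26.2 to 132 CPM. On D30 it was at 109.8 and 115 CPM with DMSO and 70.2 and 56.8 CPM with TMG, and on D70 at 75.9 and 132 CPM with DMSO and 69.8 and 42.2 CPM with TMG. On both late stages the TMG libraries lay below the DMSO libraries.

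DLK1, a membrane protein related to Notch ligands, is paternally expressed and its neighbour MEG3 is a maternally expressed noncoding RNA. DLK1 was at 33.4 and 77.8 CPM in DMSO and 59.2 and 61.2 CPM in TMG on D0. It was at 249 and 104 CPM in DMSO and 68.5 and 25.6 CPM in TMG on D12, and at 79.1 and 194 CPM in DMSO and 83.9 and 56.6 CPM in TMG on D30. The arms of D12 did not overlap, while those of D0 and D30 did. On D70, DLK1 reached 142 and 823 CPM with DMSO and 61.1 and 229 CPM with TMG, higher in replicate 2 of each arm, as H19 and IGF2 were.

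MEG3 was scarce at every stage. It had 280 counts in all 16 libraries together, from 1 to 69 per library. It was at 0.433 and 4.83 CPM in DMSO and 2.13 and 1.85 CPM in TMG on D0, at 2.11 and 0.876 CPM in DMSO and 0.727 and 0.249 CPM in TMG on D12, and between 0.0925 and 1.21 CPM in all 8 libraries of D30 and D70. The highest level was therefore in a stem cell library, DMSO replicate 2 of D0. That library also had the highest DLK1 and CDKN1C of D0, and DIO3, the thyroid hormone deiodinase gene at the far end of the DLK1 and MEG3 cluster, at 37.6 CPM, beside 4.02 to 9.27 CPM in the 3 other D0 libraries. RTL1 of the same cluster was at 0.124 to 2.98 CPM throughout.

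PEG3, a paternally expressed zinc finger gene, was as scarce. It had 115 counts over the 16 libraries, from 1 to 25 per library, and its levels ran from 0.0805 CPM in DMSO replicate 2 of D70 to 1.25 CPM in DMSO replicate 2 of D30.

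MEST, a paternally expressed member of the alpha/beta hydrolase family, was at 156 and 135 CPM in DMSO and 153 and 163 CPM in TMG on D0, and at 314 and 417 CPM in DMSO and 403 and 335 CPM in TMG on D12. It was highest on D30, at 829 and 797 CPM in DMSO and 661 and 510.3 CPM in TMG, and stood at 673 and 444 CPM in DMSO and 380.4 and 548 CPM in TMG on D70. Every later library thus held more MEST than any D0 library. PEG10, derived from a retrotransposon and paternally expressed, was at 204 and 237 CPM in DMSO and 296 and 289.6 CPM in TMG on D0 and at 236 and 281 CPM in DMSO and 285 and 377 CPM in TMG on D12. PEG10 then stood at 491 and 453 CPM in DMSO and 353 and 429 CPM in TMG on D30, and at 629 and 523 CPM in DMSO and 456 and 259 CPM in TMG on D70. The DMSO libraries were above the TMG libraries on the 2 late stages and below them on the 2 early ones.

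GRB10, an adaptor that binds insulin and IGF1 receptors and dampens their signal, was lower on D30 than on D0 in every library. GRB10 was at 105 and 124 CPM in DMSO and 147 and 143 CPM in TMG on D0, at 88.4 and 65.4 CPM in DMSO and 101 and 88.5 CPM in TMG on D12, and at 52.8 and 59.0 CPM in DMSO and 63.9 and 89.3 CPM in TMG on D30. On D70 it was at 86.7 and 131 CPM in DMSO but 52.8 and 67.4 CPM in TMG. The TMG libraries were above the DMSO libraries on D0, D12 and D30 and below them on D70.

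NNAT, a small membrane proteolipid of developing brain, showed no common direction. Outside D70 it was between 49.6 and 159 CPM, with the highest level in TMG replicate 2 of D30. On D70 it was at 104 and 43.1 CPM in DMSO and at 138 and 6.47 CPM in TMG. The low values were again those of replicate 2, the libraries in which the 10 neuron markers summed to 638 and 247 CPM, beside 1254 and 1348 CPM in replicate 1. BLCAP, around NNAT on the other strand, stayed between 52.0 and 84.6 CPM in all 16 libraries.

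Stages were compared within the DMSO cultures by edgeR's quasi-likelihood test in a fit of all 16 libraries, with Benjamini-Hochberg adjustment over the 24249 genes. Each gene had a single estimate of spread over all 16 libraries, so the D70 replicates also entered the SEs of earlier stages. From D0 to D12, 1 of the 10 genes passed a false discovery rate of 5%, where 16.7% of all genes tested did. From D0 to D30, 4 of 10 passed, beside 30.6% of all genes, and from D0 to D70, 5 of 10 passed, beside 29.8%. Between the later stages the counts were 1 of 10 for D12 to D30 (3.6% of all genes), 1 of 10 for D12 to D70 (11.1%) and 0 of 10 for D30 to D70 (0.384%). For D30 to D70, 3 of the 10 and 4468 of all genes had an unadjusted p under 0.05 by edgeR. DESeq2 called 2 of the 10 there, GRB10 and H19, beside 7.08% of all genes. The shares of members called were thus of the order of those of all genes, and no test set them apart.

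MEST rose at every step up to D30. Its log2 fold change was 1.33 (SE 0.26, adjusted p = 0.00809 by edgeR) from D0 to D12 and 1.15 (SE 0.26, adjusted p = 0.0384 by edgeR) from D12 to D30. Against D0 it was 2.49 (SE 0.27, adjusted p = 0.000209 by edgeR) on D30 and 1.94 (SE 0.27, adjusted p = 0.000577 by edgeR) on D70. The D30 and D70 calls against D0 were kept whichever single library was left out. The step to D12 was not called without D0 replicate 2 (adjusted p = 0.0617) or D12 replicate 2 (adjusted p = 0.0626), and the step from D12 to D30 was not called without any 1 of its 4 libraries, where at most 0.775% of all genes were called.

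PEG10 rose later, by 1.10 (SE 0.26, adjusted p = 0.00992 by edgeR) from D0 to D30 and by 1.39 (SE 0.26, adjusted p = 0.0033 by edgeR) from D0 to D70 on the log2 scale. From D12 to D70 it rose by 1.15 (SE 0.26, adjusted p = 0.0204 by edgeR), a call lost without D12 replicate 1 (adjusted p = 0.157), D12 replicate 2 (adjusted p = 0.0805) or D70 replicate 1 (adjusted p = 0.0873). The D70 call against D0 was kept whichever single library was left out, and the D30 call was lost without D0 replicate 1 (adjusted p = 0.0621) or D30 replicate 1 (adjusted p = 0.0592). Within the TMG cultures PEG10 did not pass for any of these pairs: its change from D0 to D70 was 0.29 (SE 0.26, adjusted p = 0.426 by edgeR). The difference between the arms, 1.10 lower under TMG, had an adjusted p of 1.0 by edgeR.

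GRB10 fell by 1.03 on the log2 scale from D0 to D30 (SE 0.25, adjusted p = 0.0105 by edgeR), a call lost without D0 replicate 2 (adjusted p = 0.0651) or D30 replicate 1 (adjusted p = 0.0782). Its difference of 0.96 from D30 to D70 did not pass (SE 0.25, adjusted p = 0.0973 by edgeR), while DESeq2 gave an adjusted p of 0.0165. On D70 GRB10 was lower than on D0 within TMG (-1.27, adjusted p = 0.00404 by edgeR). In DMSO its change was -0.07 (SE 0.24, adjusted p = 0.841 by edgeR) and was not called. The difference between the arms, 1.2 lower under TMG (SE 0.35), did not pass. The mean of both arms (-0.67, adjusted p = 0.00863 by edgeR) thus averages a change in TMG with almost none in DMSO.

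From D0 to D70 the largest changes called were those of IGF2, H19 and DLK1, and the SEs of IGF2 and H19 were the largest of the 10. IGF2 rose from 3.94 ± 2.25 to 2223 ± 2878 CPM (SD, n = 2), a log2 fold change of 9.14 (SE 2.09, adjusted p = 0.00887 by edgeR). H19 rose from 4.55 ± 1.09 to 1447 ± 2000.4 CPM (SD, n = 2), a log2 fold change of 8.31 (SE 2.22, adjusted p = 0.018 by edgeR), and DLK1 rose by 3.12 (SE 0.94, adjusted p = 0.0298 by edgeR). Without D70 DMSO replicate 2 these fitted changes were 5.59 for IGF2, 2.84 for H19 and 1.36 for DLK1, and H19 and DLK1 were no longer called (adjusted p = 0.194 and 0.275 by edgeR). With the replicate 2 libraries of both arms of D70 left out, IGF2 at 5.62 and H19 at 2.86 were called (adjusted p = 0.00114 and 0.00406 by edgeR), and DLK1 at 1.39 was not (adjusted p = 0.158). The 3 calls were also lost without D0 replicate 1 (adjusted p = 0.0799 for IGF2, 0.109 for H19 and 0.174 for DLK1) or D0 replicate 2 (adjusted p = 0.0604, 0.116 and 0.0771).

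IGF2 was also higher on D30 than on D0, by 5.26 (SE 1.78, adjusted p = 0.0454 by edgeR), a call lost without any 1 of the 4 libraries compared. On D12, H19 and IGF2 differed from D0 by 4.44 (SE 1.88, adjusted p = 0.13) and 4.20 (SE 1.70, adjusted p = 0.116) by edgeR and did not pass, although their D0 and D12 libraries did not overlap. These SEs include the spread between the D70 replicates. DESeq2 called both (adjusted p = 0.0281 and 0.0258), and so did edgeR within TMG (adjusted p = 0.0494 and 0.0493) and over the mean of both arms (adjusted p = 0.0106 and 0.00977). For CDKN1C, NNAT, MEG3 and PEG3 no pair of stages passed in DMSO with all libraries. Without D0 replicate 2, the DMSO library of D0 with most CDKN1C, CDKN1C was higher by 2.1 (SE 0.44, adjusted p = 0.0111 by edgeR) on D30 and by 1.98 (SE 0.43, adjusted p = 0.0147) on D70 than on D0. Over the mean of both arms MEG3 was lower than on D0, at -2.0 (SE 0.74, adjusted p = 0.0448 by edgeR) on D30 and -2.49 (SE 0.77, adjusted p = 0.0207) on D70. Of these 4 genes only PEG3 had an unadjusted p under 0.05, from D0 to D12, where its log2 fold change was 2.08 (SE 0.92, adjusted p = 0.145 by edgeR).

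**Figure D3:**
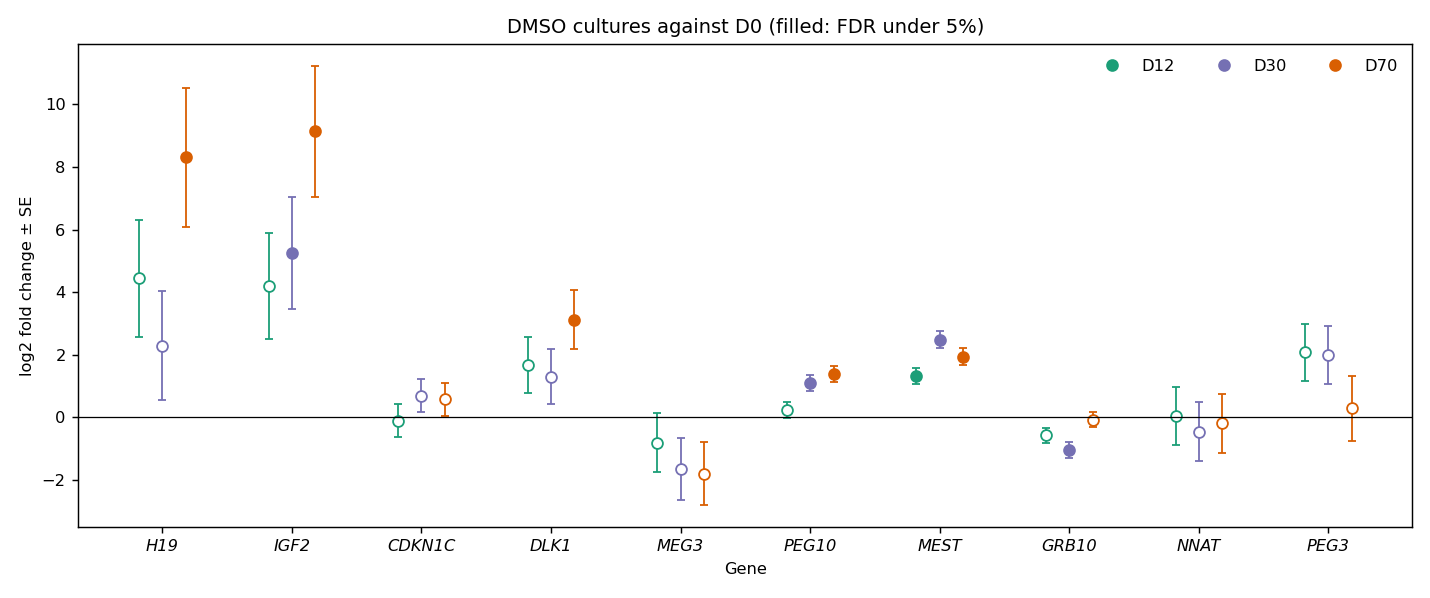
Log2 fold change of the DMSO cultures on D12, D30 and D70 against D0 for the 10 genes. Bars are 1 SE, derived from the F statistic of edgeR. Filled points passed a false discovery rate of 5%. MEST is filled at all 3 stages with short bars, while H19 and IGF2 on D70 are the largest changes, 8.31 and 9.14, with SEs of 2.22 and 2.09.

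TMG was compared with DMSO at each stage in the same fit, the comparison the study was designed for. By edgeR 0 of the 10 genes passed at any stage, and at every stage the share of all genes that passed was 0.0%. At an unadjusted p under 0.05 there were 0 of the 10 genes on D0, D12 and D30 and 2 on D70, beside 306, 601, 2908 and 1332 of all genes in stage order. DESeq2 called 0 of the 10 at each stage and 5, 11, 597 and 55 of all genes. The spread between replicates was widest on D70, with a common biological coefficient of variation of 0.616, beside 0.189 to 0.295 at the earlier stages.

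The 2 genes at an unadjusted p under 0.05 were GRB10 and PEG10 on D70, both lower with TMG. GRB10 had a log2 fold change of -0.85 (SE 0.25, adjusted p = 0.858 by edgeR) and PEG10 of -0.69 (SE 0.26, adjusted p = 0.892 by edgeR). Without TMG replicate 1 of D70, which leaves TMG replicate 2 as the lone TMG library, PEG10 at -1.16 and NNAT at -3.52 passed (adjusted p = 0.0409 and 0.0356 by edgeR), as did 3.07% of all genes in that fit. Without TMG replicate 2, NNAT was at 0.91 in the other direction, so its value depends on which TMG library is kept. Without replicate 2 of both arms GRB10 was at -0.71 (adjusted p = 0.82 by edgeR) and PEG10 at -0.46 (adjusted p = 0.94).

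For H19 and IGF2 the TMG libraries were above the DMSO libraries on D12, with log2 fold changes of 2.29 (SE 1.68) and 1.97 (SE 1.51) (adjusted p = 1.0 by edgeR). Without TMG replicate 1 of D12, H19 was at 1.2 and IGF2 at 1.12. The 7 trophoblast markers moved with them on D12, 6 of 7 above 0 with a median of 2.62 and 3 at an unadjusted p under 0.05 but 0 called, and their part in these differences was not tested. The 10 mesenchyme and stroma markers moved as well, with 8 of 10 above 0 and a median of 1.1 on D12. On D30 all 10 were above 0 with TMG, with a median of 3.04, 2 at an unadjusted p under 0.05 by edgeR and 0 called. Their part was not tested either. On D30, H19 differed by 1.09 (SE 1.64, adjusted p = 0.856 by edgeR) and IGF2 by 1.02 (SE 1.47, adjusted p = 0.85). Without TMG replicate 2 of D30, H19 was at 1.48 and IGF2 at -0.52. On D70 they differed by 1.56 (SE 1.64, adjusted p = 0.947) and 1.09 (SE 1.47, adjusted p = 0.953) by edgeR. Their libraries were apart between the arms on D12 for both genes and on D30 for H19 alone, and overlapped on D70. For H19 on D70 the value without TMG replicate 2 was -3.75 and without DMSO replicate 2 it was 7.07, and for IGF2 these were -3.65 and 4.69. Within each replicate number of D70, H19 was higher with TMG, at 107 beside 32.5 CPM and at 8445 beside 2862 CPM. IGF2 was at 177 beside 188 CPM in replicate 1 and at 9312 beside 4258 CPM in replicate 2. With both replicate 2 libraries left out H19 was at 1.72 and IGF2 at -0.09.

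DLK1 had its TMG libraries below its DMSO libraries on D12, by 1.91 on the log2 scale (SE 0.9, adjusted p = 1.0 by edgeR), and its values on D30 and D70 were -0.96 (SE 0.88) and -1.74 (SE 0.89). With 1 library left out, DLK1 ran from -2.78 to -1.15 on D12 and from -1.47 to -0.17 on D30. Without replicate 2 of both arms of D70, DLK1 was at -1.21 and CDKN1C at -0.12. With all libraries CDKN1C was at -0.83 (SE 0.53) on D30 and -0.89 (SE 0.53) on D70, and MEST at -0.47 (SE 0.26) on D30. MEG3 was at -0.39 (SE 0.93) on D0, where both TMG libraries lay between the DMSO libraries and the sign turned with 1 library left out. On D70 it was at -1.80 (SE 1.22), and at -0.02 (SE 1.76) without replicate 2 of both arms. None of these passed.

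Counted by overlap alone, the TMG and DMSO libraries were apart for 2, 6, 6 and 4 of the 10 genes, from the first stage to the last. Over all genes tested the shares apart were 36.6%, 34.3%, 44.1% and 22.1% in the same order. With 10 genes these counts are not set apart from the shares of all genes by any test. The genes apart on D12 were H19, IGF2, PEG10 and GRB10, higher with TMG, and DLK1 and MEG3, lower. On D30 they were H19 and GRB10, higher, and PEG10, MEST, CDKN1C and MEG3, lower, and on D70 PEG10, CDKN1C, GRB10 and MEG3, all lower.

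The effect of TMG was also compared between stages. In edgeR's test 0 of the 10 genes passed in any of 6 such comparisons, where 0.0% of all genes did, with 260 to 1197 of all genes at an unadjusted p under 0.05. Of the 60 results of the 10 genes, 5 were under 0.05, all of them for GRB10 and PEG10 on D70 against an earlier stage. The largest was that of GRB10, whose TMG effect on D70 was 1.31 lower on the log2 scale than that on D30 (SE 0.35, adjusted p = 1.0 by edgeR). These comparisons share the D70 libraries.

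**Figure D4:**
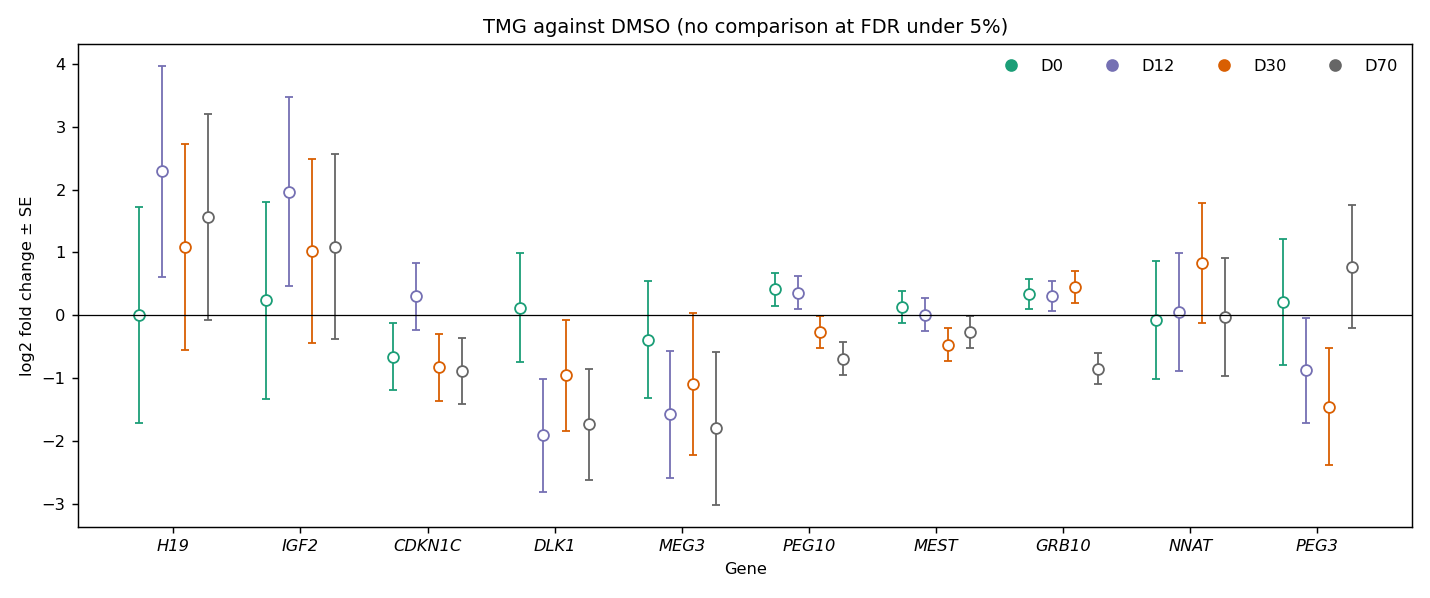
Log2 fold change of TMG against DMSO on D0, D12, D30 and D70 for the 10 genes. Bars are 1 SE, derived from the F statistic of edgeR. Open points did not pass a false discovery rate of 5%, and none passed. GRB10 lies above 0 on D0, D12 and D30 and at -0.85 on D70, and the bars of H19 and IGF2 are the longest.

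Neighbours of the 10 genes at their loci moved in both directions. Of 40 listed neighbours 31 were tested, and from D0 to D70 in DMSO 9 rose and 3 fell, where 29.8% of all genes were called, with a median log2 fold change of 0.32 beside 0.027 for all genes. The 3 that fell, named after their values were seen, were IKZF1 (-2.71), PHLDA2 (-2.66) and CTNNBL1 (-0.68). Without replicate 2 of both arms of D70, 10 rose and 2 fell, where 33.9% of all genes were called. KCNQ1OT1, the paternally expressed antisense RNA between IGF2 and CDKN1C on chromosome 11, rose from 553 and 372 CPM on D0 to 2133 and 1848 CPM on D30 (log2 fold change 2.11, adjusted p = 0.00419 by edgeR). On D70 it was at 1.18 against D0 (adjusted p = 0.0494 by edgeR), and at 0.65 and not called without replicate 2 of both arms (adjusted p = 0.255). CD81 and NAP1L4, genes of the same region, stayed between 98.7 and 324 CPM in all libraries. IGF2-AS, on the strand opposite IGF2, rose from 0 and 0.0699 CPM on D0 to 1.22 and 1.93 CPM on D70 in DMSO (adjusted p = 0.0115 by edgeR). SGCE, which starts beside PEG10 on the other strand, rose by 0.83 (SE 0.23, adjusted p = 0.0195 by edgeR), and CPA4, near MEST, rose from 0 and 0.0699 CPM to 26.1 and 12.6 CPM (adjusted p = 0.00024 by edgeR).

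Of 37 other imprinted genes, 31 were tested, and 15 of the 37 are also among the neighbours above. From D0 to D70 in DMSO, 7 of the 10 mesenchyme and stroma markers rose (median 7.29) and all 8 stem cell markers fell (median -10.07). Their part in these genes and in the neighbours above was not tested. Of the other imprinted genes, in DMSO 6 rose and 5 fell from D0 to D12, 11 rose and 7 fell from D0 to D30, and 9 rose and 6 fell from D0 to D70, with a median of 0.29 at D70. The shares of all genes called were 16.7%, 30.6% and 29.8%. Without replicate 2 of both arms of D70, the median at D70 was 0.43. ZDBF2 rose by 1.69 (SE 0.47, adjusted p = 0.022 by edgeR) from D0 to D70, while GNAS, which encodes a stimulatory G protein subunit, was at 502 to 941 CPM in all libraries and at 0.29 (SE 0.29, adjusted p = 0.478). UBE3A, a ubiquitin ligase imprinted in neurons, was at 0.03 (SE 0.14, adjusted p = 0.892). With TMG 0 of the 31 passed at any stage by edgeR, and 0, 1, 7 and 2 had an unadjusted p under 0.05, beside 306, 601, 2908 and 1332 of the 24249 genes tested.

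In the IGF axis, of 21 listed genes 19 were tested. From D0 to D70 in DMSO 6 rose and 3 fell, beside 29.8% of all genes called, with a median of 0.2. Without replicate 2 of both arms the median was 0.12, and IRS4 was at 2.32, beside 1.36 with all libraries. Of the 10 mesenchyme and stroma markers 7 rose and none fell over the same stages, with a median of 7.29, and their part in the IGF axis was not tested. IGF1R, the receptor of IGF1 and IGF2, was at 315 to 683 CPM in all libraries, with a log2 fold change of -0.19 (SE 0.23, adjusted p = 0.56 by edgeR). IGF2R, the receptor that clears IGF2, was at 201 to 549 CPM, with a log2 fold change of -0.82 (SE 0.38, adjusted p = 0.12 by edgeR) on D30 and -0.61 (SE 0.38, adjusted p = 0.242) on D70. IGFBP5, a secreted binding protein, rose by 4.52 (SE 0.64, adjusted p = 0.000757 by edgeR), and IGFBP2 was at 0.20 (SE 0.39, adjusted p = 0.727) and IGFBP4 at 0.31 (adjusted p = 0.689). The others that rose, named after their values were seen, were IGFBP7 (8.18), IGFBP6 (3.81), IGFBP3 (3.6), the ligand IGF1 (3.76) and PAPPA (2.77), a protease that cleaves IGF-binding proteins. Without replicate 2 of both arms PAPPA was at 0.71 and not called (adjusted p = 0.232 by edgeR). The 3 that fell, named after their values were seen, were the RNA-binding proteins IGF2BP1, IGF2BP2 and IGF2BP3, which bind IGF2 mRNA. IGF2BP1 fell by 2.39 (SE 0.38, adjusted p = 0.00137 by edgeR), IGF2BP3 by 1.56 (SE 0.19, adjusted p = 0.000354) and IGF2BP2 by 0.71 (SE 0.17, adjusted p = 0.0116). INS and IGFBP1 did not pass the filter.

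Among genes that write, erase or keep methylation at imprinted regions, more fell than rose against D0 at each later stage. The 8 stem cell markers moved with them: 7, 8 and 8 fell by D12, D30 and D70, with a median of -10.07 by D70, and their part was not tested. Of 15 listed, 11 were tested, and in DMSO 3 fell and 2 rose by D12, 7 fell and 3 rose by D30, and 6 fell and 1, TET2, rose by D70. The shares of all genes called were 16.7%, 30.6% and 29.8%. The median by D70 was -0.64. Without replicate 2 of both arms that median was -1.39, over 13 tested. DNMT3B, a de novo DNA methyltransferase, fell by 6.51 (SE 0.46, adjusted p = 2.74e-05 by edgeR). TRIM28, the corepressor that binds methylated control regions through zinc finger proteins, fell by 1.61 (SE 0.23, adjusted p = 0.000681), and TET1 fell by 1.5 (SE 0.30, adjusted p = 0.00434). SMCHD1, a chromatin protein of imprinted clusters, rose by 0.56 (SE 0.19, adjusted p = 0.0487 by edgeR) by D30 and was at 0.07 (SE 0.19, adjusted p = 0.795) on D70. ZFP57, the zinc finger partner of TRIM28, was at 0 to 1.68 CPM and passed the filter on low counts only without replicate 2 of both arms, where it was called in place of CTCF (adjusted p = 0.0347 and 0.074 by edgeR). No gene of this list passed with TMG by edgeR, while 3 on D30 and 1 on D70 had an unadjusted p below 0.05, beside 2908 and 1332 of all 24249 genes. On D30 with TMG 5 of the 8 stem cell markers were also below 0.05, with a median of 2.16 and 0 called, at a summed 31.5 to 95.1 CPM over the 4 libraries.

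The genes whose log2 CPM followed the members most closely over the 16 libraries were looked up among 23363 genes, as a description. The closest to IGF2 was a long noncoding RNA, ENSG00000240801, with a Pearson correlation of 0.987. It lies at chr11:2150351-2151194 on the same strand, within IGF2, so the estimated counts divide reads between them, and it was at 0 to 123 CPM. The closest to H19 was SVIL (0.954), to NNAT ZNF423 (0.948), to GRB10 CCR9 (0.935) and to PEG10 CPEB1 (0.908). Those of MEG3 (PLIN5, 0.892), DLK1 (MYO15B, 0.882), PEG3 (HGS, 0.842) and CDKN1C (MIOS-DT, 0.822) were lower. All 16 points share 4 stages and the makeup of the cultures. Among the members themselves, MEST and GRB10 had a correlation of -0.748, MEST and IGF2 of 0.724 and MEG3 and DLK1 of 0.168.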

How the data were processed

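RNA of the 16 libraries was depleted of ribosomal RNA. RSEM 1.2.12, with Bowtie2 and hg19, gave the authors' estimated counts per Ensembl gene of GRCh37, deposited as whole numbers and used without rounding. Libraries were grouped by their titles. The names of the count columns, which mark DMSO by D and TMG by T, go with the titles, while the treatment tag of 8 goes against the title. edgeR 4.0.16 (TMM, filterByExpr with a minimum count of 10 and total of 15, robust quasi-likelihood fit of 8 group means, 8 residual degrees of freedom) tested 24249 genes, adjusted by Benjamini-Hochberg at 5% within each comparison. The SE of an edgeR result is the absolute log2 fold change over the square root of the F statistic. Tested on simulated data with 200 of 22899 genes changed 4-fold by TMG on D30, the fit recovered 193 and called 8 others. Each simulated gene had the same mean in all groups and a fixed dispersion, and only genes with high counts were changed. This recovery therefore does not give the power of the comparisons in the real libraries. The methods of the study name DESeq2, run here (1.42.0) as an alternative, with RLE scaling, no filter, a replicate block, the libraries of 1 stage, the TMG arm and each library left out. Correlations used log2 CPM with a prior count of 2. All 10 members are named. The other genes named are some of the 4 of highest mean CPM in each list, some neighbours and some closest genes. IGFBP4, IRS4 and CTCF are outside this rule. TET2, ZFP57, IGF2R, IGF2BP2, IGF2BP3, LUM, DCN and KRT7 were named after their values were seen. The members and lists were chosen with earlier results of these data known. Coordinates are from GENCODE 44 lifted to GRCh37. The study names 2 biological replicates, and nothing says whether equal numbers share a differentiation. R 4.3.3 and Python 3.11.15 were used. MIR675 and 4 listed genes, KLF14, HYMAI, UHRF1 and PECAM1, were not analysed here, and 1 correlation is not reported here.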

Additional observations from a re-analysis of the deposited data

How the results depend on the processing

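Among the 10 genes, the number that passed with DESeq2 was 3 from D0 to D12, 2 from D12 to D30, 2 from D12 to D70 and 2 from D30 to D70, where 22.6%, 10.3%, 18.7% and 7.08% of all genes passed. The same stages within TMG gave 3 from D0 to D12, 0 from D12 to D30 and 0 from D12 to D70 (16.4%, 0.511% and 5.15% of all genes). The mean of both arms gave 4 from D0 to D12, 2 from D12 to D70 and 1 from D30 to D70 (35.4%, 26.8% and 3.67% of all genes). Without the filter on low counts 3 passed from D0 to D70 (13.2% of all genes), H19 (adjusted p = 0.0693 by edgeR) and DLK1 (adjusted p = 0.0993) no longer among them. Without the D70 libraries numbered 2 in both arms, left out after seeing the data, 2 passed from D12 to D70 (20.5% of all genes). With 1 library left out, which leaves an arm with a lone library assumed to vary like the others, the numbers ran from 0 to 1 for D0 to D12, 1 to 3 for D0 to D30, 0 to 0 for D12 to D30, 2 to 5 for D0 to D70, 0 to 1 for D12 to D70, and 0 to 2 for TMG on D70. In these fits the shares of all genes called ran from 3.96% to 6.96%, 13.9% to 17.0%, 0.0% to 0.775%, 14.2% to 23.9%, 1.33% to 8.78% and 0.0% to 3.07%. The cause of these shifts was not tested.

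Some signs turned. The TMG difference of H19 on D0, 0.0 on the log2 scale, was -0.02 in a fit of the 4 D0 libraries alone, and that of MEST on D12 was -0.0 in a fit of the 4 D12 libraries alone. GRB10 from D30 to D70 was -0.35 within TMG. Without the D70 libraries numbered 2, NNAT with TMG on D70 was 0.41 and IGF2 -0.09. With 1 library left out, TMG differences on D0 ran from -0.3 to 0.25 for NNAT, -1.33 to 0.74 for CDKN1C, -0.21 to 0.3 for H19, -0.22 to 0.98 for IGF2, -0.34 to 0.86 for DLK1, -0.49 to 0.65 for PEG3 and -1.25 to 2.18 for MEG3. On D12 they ran from -0.25 to 0.3 for NNAT, -0.18 to 0.24 for MEST and -0.03 to 0.56 for CDKN1C. On D30 they ran from -0.07 to 1.37 for NNAT, -0.52 to 1.74 for IGF2 and -2.1 to 0.03 for PEG3. On D70 they ran from -3.52 to 0.91 for NNAT, -0.55 to 0.07 for MEST, -3.75 to 7.07 for H19, -3.65 to 4.69 for IGF2 and -2.98 to 0.05 for DLK1.

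A replicate block was also fitted. Differences between replicates 1 and 2 correlated between the arms by 0.045, 0.367, 0.223 and 0.607 from the first stage to the last, across 24249 genes, which are not independent. The numbers were not taken as pairs in the main fit, as nothing says whether equal numbers share a differentiation. Within both numbers of D70, H19 was higher with TMG and DLK1 lower, at 61.1 beside 142 CPM and 229 beside 823 CPM. With the block the call of none of the 10 genes changed, in the comparisons of TMG or of stages, although over all genes the block nested in stage called 233 on D30 and 1 on D70. The TMG difference on D0 became -0.06 for H19 with a block over all stages and 0.18 for MEG3 with a block nested in stage. With 2 libraries per group the SEs of the TMG differences were 1.47 to 1.72 for H19 and IGF2.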
